A study of Mus musculus with 4 samples.

Results

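Genes of the NF-kappaB pathway were followed in primary cardiac fibroblasts of the mouse: 4 of its subunits (Nfkb1, Nfkb2, Rela and Relb), 3 inhibitors and regulators (Nfkbia, Nfkbiz and Tnfaip3) and 3 Toll-like receptors (Tlr2, Tlr3 and Tlr4). The 10 genes were taken by symbol, as 10 of the 33641 genes listed in each library. Cells came from wild-type C57BL/6J mice aged 12 weeks and were grown to 80% confluency. Of the 4 libraries, 2 were from cells given 10 ng/ml TGFbeta, the cytokine that drives fibroblasts towards contractile myofibroblasts, and 2 from cells given vehicle. All cells took up 4-thiouridine, a uridine analogue, at 20 and 4 h before crosslinking with light of 368 nm; how long TGFbeta was present is not given in the sources used here. The series is described as RNA bound to HuR, the AU-rich element binding product of Elavl1, whereas the sample labels describe total RNA, so values are given as levels in the libraries only. Whether the replicates were separate cultures or animals is not given either, so p-values measure the spread between these libraries.

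NF-kappaB is a family of transcription factors that act as dimers of Rel-domain subunits. In resting cells inhibitor of kappaB (IkappaB) proteins hold the dimers in the cytoplasm. Toll-like receptors, which recognise microbial products, and cytokine receptors activate IkappaB kinases (IKKs) through adaptor proteins. The inhibitor is then phosphorylated and degraded, and the dimers enter the nucleus and bind kappaB sites in DNA. Several inhibitor genes are themselves NF-kappaB targets, which closes a feedback loop. In cardiac fibroblasts the pathway is known for driving chemokine and cytokine genes.

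Deposited levels were in TPM, scaled by transcript length and to a total of 1000000 in each library. Levels in the libraries can thus be compared between genes, but read depth is unknown. Whether they stand for total or HuR-bound RNA is not settled, so an order of levels is not read as one of abundance in the cells. Between 20945 and 21671 genes per library lay above 0. Elavl1 had 51.2 and 54.7 TPM in the TGFbeta libraries and 51.1 and 45.7 TPM in the vehicle libraries. All 10 fibroblast markers were measured, with a summed level of 19749 to 20812 TPM with TGFbeta and 20055 to 23698 TPM with vehicle, most of it from collagen genes and Vim. Of these markers 2 fell (20%, against 4.38% of all tested genes) and 0 rose by limma. At an unadjusted p under 0.05, 4 were lower (against 18.5% of all tested genes) and 1 higher. Those called were the receptor gene Pdgfra, down by 1.42 on the log2 scale (limma adjusted p = 0.0106), and the transcription factor gene Tcf21, down by 1.11 (limma adjusted p = 0.0148). In 6 of the 10 markers both TGFbeta libraries lay below both vehicle libraries, against 39.8% of all tested genes. In 2 they lay above, against 15.5% of all tested genes. These were Col1a1, at a change of 0.91 (limma adjusted p = 0.0958), and Col1a2, at 0.48 (limma adjusted p = 0.236).

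With TGFbeta, 1 of the 10 genes, Nfkbia, passed the test and was lower, and 0 were higher by limma (0 higher also at an unadjusted p under 0.05). Nfkbia encodes IkappaB-alpha, the main cytoplasmic inhibitor, and its mean level with TGFbeta was 0.567 times that with vehicle. Over all 15815 tested genes, 4.38% were called lower and 1.54% higher (limma, Benjamini-Hochberg adjusted p under 0.05). Without a test, 8 of the 10 genes had both TGFbeta libraries below both vehicle libraries and 0 had both above, against 39.8% and 15.5% of all tested genes. Before adjustment, 4 of the 10 were lower with p under 0.05, as were 2928 of the 15815 tested genes (18.5%). In either direction, 3873 of the tested genes had an unadjusted p under 0.05. The median log2 change of the 10 genes was -0.39, and that of all tested genes -0.13.

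Those changes are differences of mean log2(TPM + 1), TGFbeta minus vehicle. Because the median of all genes lay below 0, each change was also read against it. With all 4 libraries, all 10 genes lay below the all-gene median as well as below 0. Of all 15815 tested genes, 7907 lay below that median, by its definition, and 10248 below 0. Without TGFbeta 1, and without TGFbeta 2, 9 of the 10 genes lay below the all-gene median. Putting the libraries on a common median brought the median of the 10 genes to -0.24 and that of all genes to 0.03. That scaling changed the balance of calls over all genes from 244 higher and 692 lower to 421 higher and 401 lower.

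**Figure D1:**
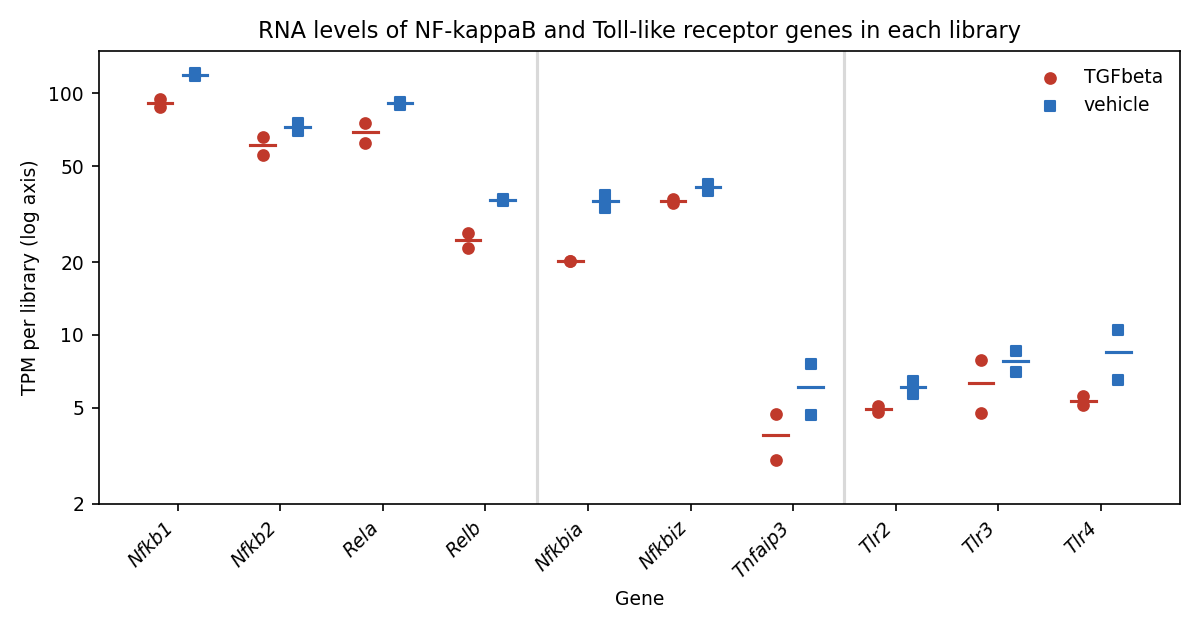
Level of each of the 10 genes in TPM (log axis) in the 2 TGFbeta libraries (circles, left) and the 2 vehicle libraries (squares, right); horizontal lines are means, and grey lines part subunits, inhibitors and receptors. The subunits and Nfkbiz lay between 22.9 and 121 TPM, the 3 receptors and Tnfaip3 between 3.03 and 10.5 TPM, and the groups overlapped for Tnfaip3 and Tlr3 only.

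The 4 subunit genes had the highest levels of the set together with Nfkbiz and Nfkbia. Nfkb1, which encodes a precursor whose processed form lacks an activation domain of its own, lies at chr3:135584655-135691547 (GRCm38, minus strand). It had 94.9 and 87.8 TPM with TGFbeta and 118 and 121 TPM with vehicle, so the groups did not overlap. Its log2 change was -0.38 (SE 0.13), which did not pass (limma adjusted p = 0.136). Rela, the subunit with a strong activation domain (chr19:5637483-5648130, plus strand), had 75.4 and 62.5 TPM with TGFbeta and 89.4 and 92.1 TPM with vehicle. Again both TGFbeta libraries were the lower ones, with a log2 change of -0.40 (SE 0.15, limma adjusted p = 0.166).

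Nfkb2 and Relb form the dimer of the non-canonical branch, in which IKK-alpha triggers processing of the Nfkb2 precursor. Nfkb2 (chr19:46304320-46312385, plus strand) had 66.2 and 55.8 TPM with TGFbeta and 75.2 and 69.7 TPM with vehicle. Its groups lay close together without overlapping, and its log2 change was -0.25 (SE 0.15, limma adjusted p = 0.358). Relb (chr7:19606217-19629438, minus strand) had 26.4 and 22.9 TPM with TGFbeta and 36.4 and 35.8 TPM with vehicle. Of the subunits, Relb had the change farthest from 0, at -0.54 (SE 0.15), and the lowest adjusted p, which still missed the threshold (limma adjusted p = 0.0903). The remaining subunit gene, Rel, was low and overlapped between groups, with 3.60 and 3.90 TPM with TGFbeta and 3.61 and 2.54 TPM with vehicle. Its log2 change was above 0, unlike those of the other subunits, at 0.23 (SE 0.22, limma adjusted p = 0.575).

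Nfkbia lies at chr12:55489410-55492647 (GRCm38, minus strand). It had 20.2 and 20.3 TPM with TGFbeta and 37.9 and 33.6 TPM with vehicle. The TGFbeta libraries were nearly equal and both well below the lower vehicle library. Means were 20.3 ± 0.0527 TPM with TGFbeta and 35.8 ± 3.04 TPM with vehicle (SD, n = 2 each). The log2 change was -0.79 (SE 0.15, 95% interval -1.14 to -0.43, limma adjusted p = 0.0382), lower in 2 of 2 TGFbeta libraries, and a more negative change was found for 7.14% of all tested genes. The call was lost without any 1 library (limma adjusted p = 0.125 with TGFbeta 1 left out, 0.128 with TGFbeta 2 out, 0.179 with vehicle 1 out and 0.184 with vehicle 2 out). It was also lost after median scaling (0.0554), quantile normalization (0.0562), without an intensity trend (0.0599) and when every gene above 0 was tested (0.0988), while the change itself stayed between -0.87 and -0.63 and the adjusted p between 0.0144 and 0.184 over 14 alternatives.

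Tnfaip3 encodes A20, a ubiquitin-editing enzyme that shuts off signalling to the IKKs, and lies at chr10:19000910-19015657 (minus strand). It had 4.71 and 3.03 TPM with TGFbeta and 7.55 and 4.65 TPM with vehicle. The groups overlapped by a small margin and each spread widely, so the log2 change of -0.53 had an SE of 0.29 (limma adjusted p = 0.319). Nfkbiz encodes IkappaB-zeta, an atypical nuclear member of the inhibitor family that also acts as a coactivator, and lies at chr16:55811375-55838899 (minus strand). It had 36.6 and 35.1 TPM with TGFbeta and 42.3 and 39.5 TPM with vehicle, the smallest change of the set at -0.18 (SE 0.14, limma adjusted p = 0.462). After median scaling that change was -0.03.

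Because NF-kappaB acts on some of these genes in turn, their promoters were searched for the kappaB consensus. RefSeq promoters of 300 bases (GRCm38.p6, 250 before to 50 after the start site) were matched by symbol for 6 of the 10 genes, Nfkb2, Rela, Nfkbia, Tnfaip3, Tlr2 and Tlr3. The consensus has 10 bases: GGG, then a purine, any base, A or T, 2 pyrimidines and CC, on either strand, with overlapping matches joined into 1 stretch. It was found for 5 of the 6 genes, Rela being the exception, against 659 of 10705 tested genes with a promoter (6.16%) and 4.51% of all 32851 promoters. These are matches of letters, not measured binding. The promoters of the called inhibitor gene, of the A20 gene and of the Tlr2 receptor gene are shown 5′ to 3′ on the strand of the gene, with the matches in capitals.
Nfkbia, chr12:55492598-55492897, minus strand: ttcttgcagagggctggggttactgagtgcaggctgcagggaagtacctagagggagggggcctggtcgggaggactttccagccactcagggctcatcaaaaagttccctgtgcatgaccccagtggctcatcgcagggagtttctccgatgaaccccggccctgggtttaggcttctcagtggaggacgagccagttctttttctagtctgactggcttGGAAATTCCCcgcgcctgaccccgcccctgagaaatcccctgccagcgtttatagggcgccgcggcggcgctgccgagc
Tnfaip3, chr10:19015361-19015660, minus strand: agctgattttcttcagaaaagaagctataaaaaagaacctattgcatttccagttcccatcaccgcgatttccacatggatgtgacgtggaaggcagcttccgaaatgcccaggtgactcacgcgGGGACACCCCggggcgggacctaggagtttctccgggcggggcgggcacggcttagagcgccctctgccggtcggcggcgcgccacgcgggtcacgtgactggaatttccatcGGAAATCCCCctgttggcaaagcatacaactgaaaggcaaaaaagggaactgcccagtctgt
Tlr2, chr3:83841559-83841858, minus strand: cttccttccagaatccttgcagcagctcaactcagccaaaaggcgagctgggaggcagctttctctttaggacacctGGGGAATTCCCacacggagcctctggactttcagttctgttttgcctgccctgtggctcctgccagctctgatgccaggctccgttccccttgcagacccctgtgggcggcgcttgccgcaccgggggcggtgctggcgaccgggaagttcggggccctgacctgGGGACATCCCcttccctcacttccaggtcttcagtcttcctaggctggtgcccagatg

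With the start site as position 1 and no position 0, the Nfkbia match ran from -29 to -20. Tnfaip3 had matches from -125 to -116 and from -12 to -3 at the start site shown, and none at its other RefSeq start site. Tlr2 had matches from -173 to -163 and from -8 to 2. Tlr3 had 1 match, from -211 to -202. Nfkb2 has 3 RefSeq start sites with 2, 2 and 1 stretches, and the promoters of the last pair overlap and share 1 of them. The genes with a match ran from a change of -0.79 for Nfkbia to -0.25 for Tlr2 and Nfkb2, and Rela, with no match, had -0.40.

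**Figure D2:**
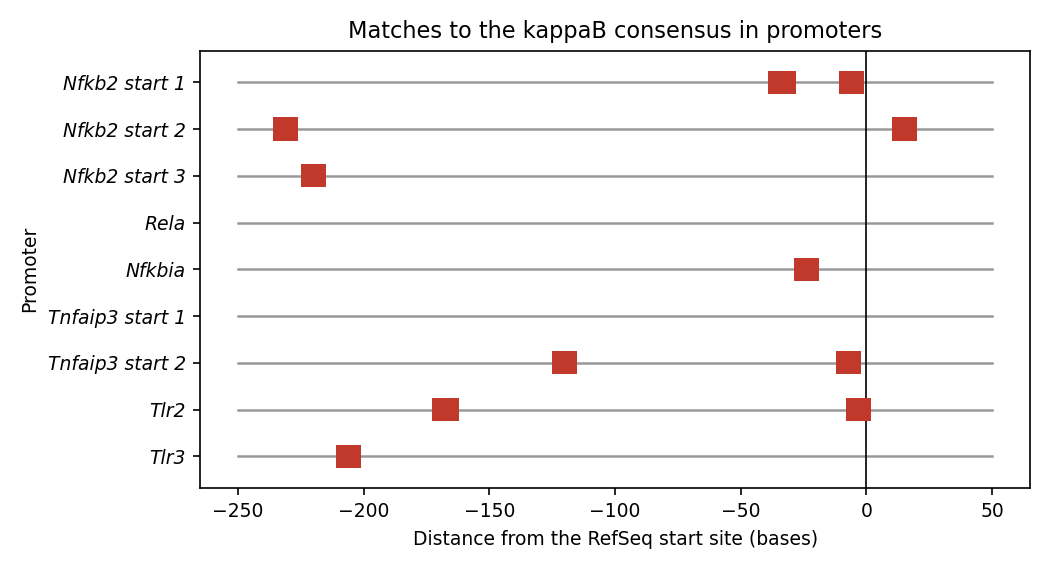
Position of kappaB consensus matches (red boxes) in 9 RefSeq promoters of 6 genes; the horizontal axis is the distance from the start site in bases and each grey line is 1 promoter of 300 bases. Matches stood in the Nfkb2, Nfkbia, Tnfaip3, Tlr2 and Tlr3 promoters and in none of Rela.

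HuR binds AU-rich elements in 3′ untranslated regions, so these were read from GENCODE M21 transcripts, taking the longest annotated region of each gene. The AU-rich nonamer, an AUUUA pentamer with UU on either side, occurred in Nfkbia, and was present in 8.3% of 13583 tested protein-coding genes. The pentamer alone occurred at 6.66 per kb in Nfkb1, 3.91 in Nfkbia, 3.34 in Tlr3, 2.95 in Nfkbiz, 1.58 in Nfkb2 and 1.51 in Tlr4, against a median of 1.3 over those genes. Rela, Relb and Tlr2 had 0 pentamers in regions of 714, 336 and 148 bases. The nonamer of the called inhibitor gene is shown in DNA letters, in capitals within its surrounding GRCm38 sequence.
Nfkbia, chr12:55489610-55489634, minus strand: accacgttTTATTTATTgtgctttt

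The 3 receptor genes were low in every library. Tlr4, the lipopolysaccharide receptor (chr4:66827584-66930284, plus strand), had 5.12 and 5.59 TPM with TGFbeta and 10.5 and 6.53 TPM with vehicle. The groups did not overlap, but the vehicle libraries lay farther apart than the nearest libraries of the 2 groups. It missed the threshold at a log2 change of -0.55 (SE 0.25, limma adjusted p = 0.238), and its change was -0.25 without vehicle 1. Tlr2, which senses bacterial lipopeptides together with Tlr1 or Tlr6 (chr3:83836272-83841767, minus strand), had 4.79 and 5.10 TPM with TGFbeta and 6.42 and 5.70 TPM with vehicle. Its log2 change was -0.25 (SE 0.19, limma adjusted p = 0.469). Tlr3, the endosomal receptor for double-stranded RNA (chr8:45395665-45411080, minus strand), had 4.73 and 7.88 TPM with TGFbeta and 8.54 and 7.02 TPM with vehicle. The second TGFbeta library lay between the vehicle libraries, the change was -0.29 (SE 0.26, limma adjusted p = 0.539), and without TGFbeta 1 it was 0.02.

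**Figure D3:**
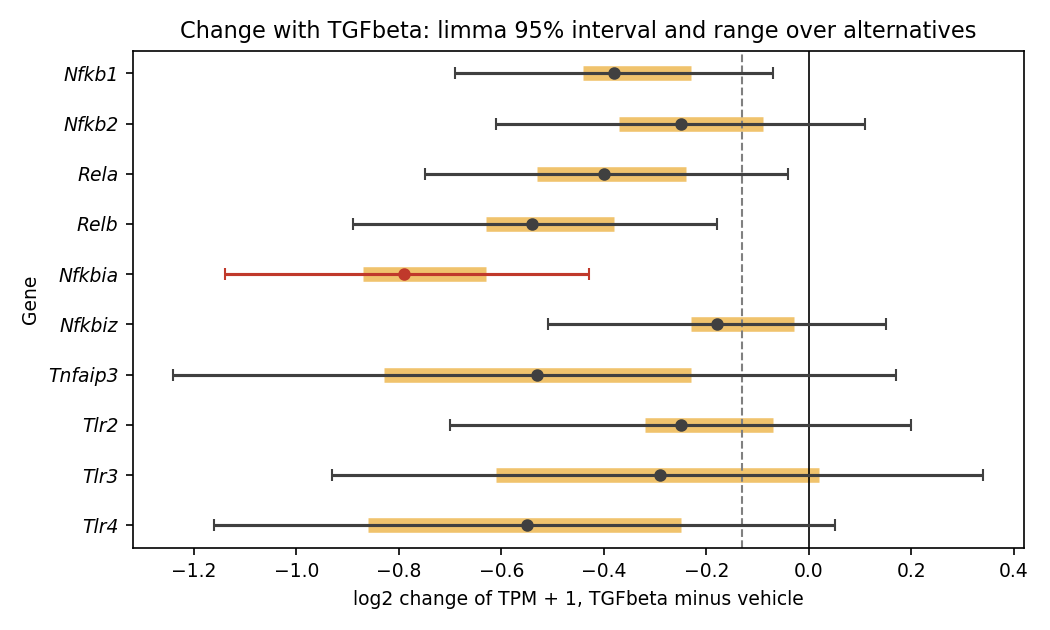
Log2 change of TPM + 1, TGFbeta minus vehicle, for each of the 10 genes; points are limma estimates from 2 libraries a group, bars their 95% intervals, and yellow bands the range over the alternatives. The solid line is 0 and the dashed line the median of all tested genes at -0.13. Nfkbia, in red, is the only gene called, and the band of Tlr3 reaches 0.02.

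By level, the order in the TGFbeta libraries was Nfkb1, Rela, Nfkb2, Nfkbiz, Relb and Nfkbia, then Tlr3, Tlr4, Tlr2 and Tnfaip3. The ranges of Rela and Nfkb2 overlapped there, and that of Tlr3 overlapped those of Tlr4 and Tlr2. In the vehicle libraries the first 6 kept that order, with overlapping ranges for Relb and Nfkbia only. Below them, Tlr4, Tlr3, Tnfaip3 and Tlr2 each overlapped the next. Relb and Nfkbia, close to each other with vehicle, were apart with TGFbeta, at 22.9 to 26.4 TPM for Relb and 20.2 to 20.3 TPM for Nfkbia. Nfkb1 shares bases with another annotated gene on its own strand, and Nfkb2 and Tlr3 with genes on the other strand, one of them Psd; whether reads were assigned by strand is not given in the sources used here, so these 3 levels may include reads of a neighbour.

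The pattern most like that of Nfkbia over the 4 libraries, by root-mean-square difference of centred log2(TPM + 1), was that of Dhrs3, which encodes a retinaldehyde reductase, at a difference of 0.023. Next were Kif11, a mitotic kinesin gene, at 0.024 and Rftn1, which encodes a lipid raft protein, at 0.028. Dhrs3 had 221 and 224 TPM with TGFbeta and 397 and 351 TPM with vehicle. Kif11 had 1.69 and 1.72 TPM with TGFbeta and 3.87 and 3.53 TPM with vehicle, and Rftn1 had 51.6 and 50.9 TPM with TGFbeta and 99.2 and 85.3 TPM with vehicle. Kif11 was low and was not called (limma adjusted p = 0.077). Its change ran from -1.07 to -0.38 over the alternatives, against -0.87 to -0.63 for Nfkbia. No test was made of likeness.

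The rest of the pathway was read from 4 further lists. Of 26 adaptor and kinase genes between receptors and the IKKs, 25 were tested, with a median log2 change of -0.21. By limma 2 fell (8%, against 4.38% of all tested genes) and 0 rose (against 1.54%). At an unadjusted p under 0.05, 9 of the 25 were lower (against 18.5% of all tested genes) and 0 higher. Irak3, which encodes an inactive kinase that restrains Toll-like receptor signalling, had 11.4 and 14.0 TPM with TGFbeta and 25.5 and 25.2 TPM with vehicle. It fell by 0.95 on the log2 scale (SE 0.17, limma adjusted p = 0.0337). Ikbke, which encodes an IKK-related kinase, had 39.1 and 38.1 TPM with TGFbeta and 70.0 and 72.8 TPM with vehicle and fell by 0.87 (SE 0.13, limma adjusted p = 0.0233). Tradd, a tumour necrosis factor receptor adaptor gene, had the next largest change at -0.56 and did not pass (limma adjusted p = 0.0950).

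Among 21 other inhibitors and feedback genes, 18 were tested, with a median of -0.34. By limma 3 fell (16.7%, against 4.38% of all tested genes) and 0 rose. At an unadjusted p under 0.05, 7 of the 18 were lower (against 18.5% of all tested genes) and 1 higher. Bcl3, which encodes an atypical IkappaB protein that works in the nucleus, had 15.7 and 16.8 TPM with TGFbeta and 48.5 and 48.4 TPM with vehicle. It fell by 1.52 on the log2 scale (SE 0.14, limma adjusted p = 0.00795), and replicates of each group lay close together. Nfkbie, the gene of IkappaB-epsilon, had 5.95 and 6.62 TPM with TGFbeta and 13.6 and 11.4 TPM with vehicle, a fall of 0.89 (SE 0.18, limma adjusted p = 0.0475). Tnip2, which encodes an A20-binding protein, fell by 0.62 to 48.5 and 50.4 TPM with TGFbeta, against 74.4 and 78.5 TPM with vehicle (limma adjusted p = 0.0491). Of the 14 alternatives, 5 kept the Nfkbie call and 4 the Tnip2 call. With a pseudocount of 0.1 the Tnip2 call was lost (limma adjusted p = 0.053). Nlrc5, known as an activator of class I antigen presentation genes, had a change of -1.01 that did not pass (limma adjusted p = 0.0668). Rnf11, which encodes a partner of A20 and is named after its values were seen, had 68.5 and 94.0 TPM with TGFbeta and 48.5 and 39.8 TPM with vehicle. Its change of 0.85 (SE 0.20) did not pass either (limma adjusted p = 0.0613, 0.0203 to 0.309 over the alternatives, of which 5 called it).

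Of 19 other Toll-like receptors and accessory genes, 13 were tested, with a median of -0.05. By limma 1 fell (7.69%, against 4.38% of all tested genes) and 0 rose. At an unadjusted p under 0.05, 4 of the 13 were lower (against 18.5% of all tested genes) and 1 higher. Lbp, which encodes the lipopolysaccharide-binding protein, had 33.6 and 39.9 TPM with TGFbeta and 78.8 and 60.2 TPM with vehicle, a fall of 0.89 (SE 0.18, limma adjusted p = 0.0471). The flagellin receptor gene Tlr5, at -0.85 (limma adjusted p = 0.117), and the lipopolysaccharide co-receptor gene Cd14, at -0.70 (0.111), did not pass. Tlr1, named after its values were seen, had the highest level of the receptor genes measured, at 27.6 and 33.8 TPM with TGFbeta and 30.6 and 20.5 TPM with vehicle. It is closely related to Tlr6, so reads could have been divided between them. Tlr11 and Tlr12 were listed at 0 in every library, and Tlr7, Tlr8, Tlr9 and Tlr13 lay under the level set for testing.

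Known NF-kappaB target genes went both ways. Of 34 listed, 26 were tested, 5 fell, 5 rose and 16 did not pass, with a median log2 change of -0.17. The shares were 19.2% lower and 19.2% higher, against 4.38% and 1.54% of all tested genes. The neutrophil chemokine gene Cxcl1 fell by 2.66 (SE 0.18, limma adjusted p = 0.00506), to 6.17 and 8.44 TPM with TGFbeta, against 50.2 and 52.0 TPM with vehicle. Cxcl5, another neutrophil chemokine gene, fell by 2.61 to 18.9 and 24.7 TPM with TGFbeta, against 177 and 107 TPM with vehicle. The monocyte chemokine gene Ccl7 fell by 1.37, the interferon regulatory factor gene Irf1 by 1.17 and Birc2, which encodes a ubiquitin ligase of the inhibitor of apoptosis family, by 0.84.

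Ptgs2, the gene of cyclooxygenase 2, rose by 2.13 (SE 0.21, limma adjusted p = 0.00947), to 15.5 and 15.8 TPM with TGFbeta, against 3.36 and 2.31 TPM with vehicle. Lif, an interleukin 6 family cytokine gene, rose by 1.53 to 77.8 and 65.1 TPM with TGFbeta, against 23.7 and 24.3 TPM with vehicle. The receptor gene Cd40 rose by 1.46, the stress response gene Gadd45b by 1.16 and the immediate early gene Ier3 by 0.74. These genes also respond to other pathways, so their changes are no measure of NF-kappaB activity. The cytokine genes Il1b and Tnf, at or under 0.168 and 0.511 TPM in every library, lay below the level set for testing. Il6, a cytokine gene of the same list, had 73.8 and 108 TPM with TGFbeta and 70.1 and 50.2 TPM with vehicle. Both TGFbeta libraries lay above both vehicle libraries, but Il6 was not called (log2 change 0.58, limma adjusted p = 0.206). Il1b, Tnf and Il6 were named after their values were seen.

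Across these lists 17 genes were called, Nfkbia included. Leaving out TGFbeta 1 kept 5 of those calls, and leaving out TGFbeta 2 kept 7. Leaving out either vehicle library left 0 genes called by limma in the whole table, with 3033 (vehicle 1 out) and 2407 (vehicle 2 out) at an unadjusted p under 0.05. After median scaling 12 stayed called; Nfkbia, Nfkbie, Tnip2, Lbp and Birc2 did not.

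**Figure D4:**
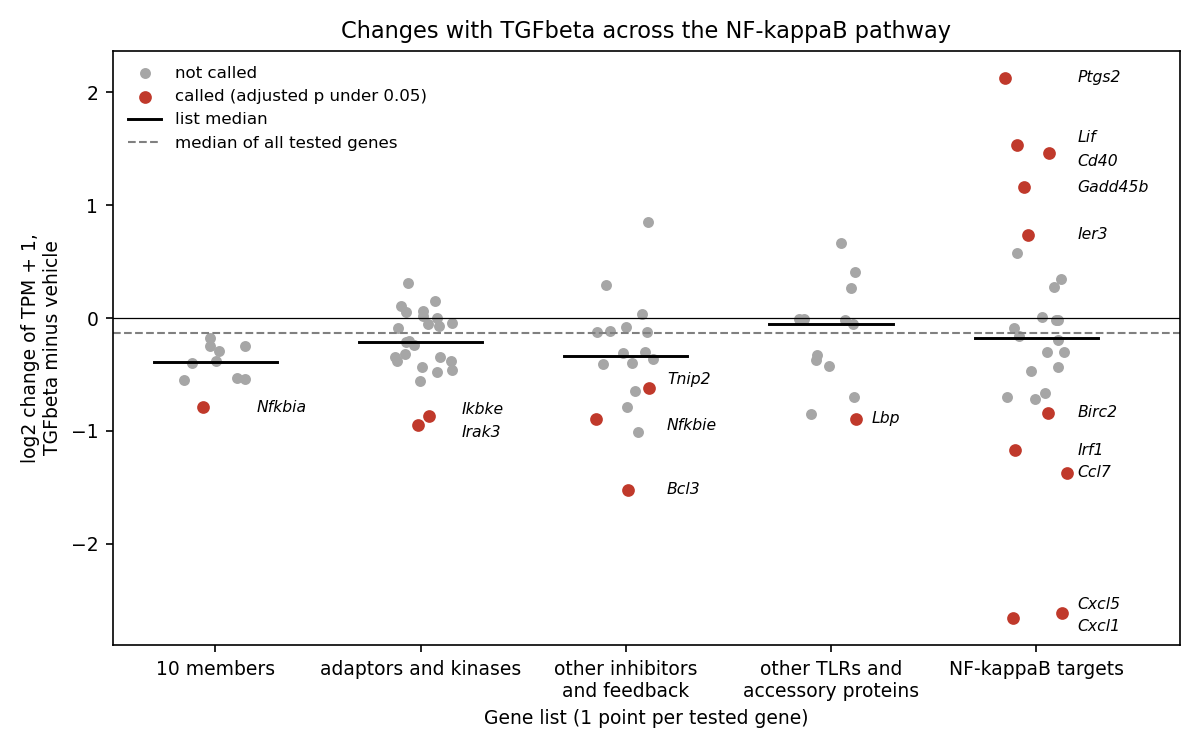
Log2 change of TPM + 1, TGFbeta minus vehicle, of each tested gene of the 10 members and 4 further lists; red points are called genes, grey points are not, black lines are list medians and the dashed line is the median of all tested genes. Called genes of the first 4 columns all lie below 0, from -0.62 for Tnip2 to -1.52 for Bcl3, and the targets run from -2.66 for Cxcl1 to 2.13 for Ptgs2.

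Markers of other cells were read in the same way. The 16 macrophage and leukocyte markers summed to 82.0 and 85.1 TPM with TGFbeta and 94.4 to 118 TPM with vehicle. Of these sums, Lyz2 alone made up 42.9 and 48.1 TPM with TGFbeta and 55.2 and 66.4 TPM with vehicle. Of the 12 tested, 0 were called by limma. At an unadjusted p under 0.05, 1 was lower, against 18.5% of all tested genes. Both TGFbeta libraries lay below both vehicle libraries for 3 of the 12 and above for 1, and 8 overlapped. Over all tested genes, 39.8% lay below and 15.5% above in this way. Ptprc, the pan-leukocyte CD45 gene, had 1.07 and 1.35 TPM with TGFbeta and 1.35 and 1.05 TPM with vehicle, and no listed marker of any type was at 0 in all 4 libraries. The 8 endothelial markers summed to 58.2 and 63.0 TPM with TGFbeta and 78.2 and 82.1 TPM with vehicle (0 of 7 called, 2 at an unadjusted p under 0.05). The 8 cardiomyocyte markers summed to 54.0 and 56.8 TPM with TGFbeta and 73.5 and 114 TPM with vehicle (0 of 5 called, 2 lower at an unadjusted p under 0.05). Of these sums, Tnnt2 alone made up 35.2 and 34.6 TPM with TGFbeta and 47.0 and 81.4 TPM with vehicle. Of 8 pericyte and smooth muscle markers, 6 were tested, with a median log2 change of 0.43. By limma 2 fell (33.3%, against 4.38% of all tested genes) and 1 rose (16.7%, against 1.54%). Their sum was 81.3 and 84.0 TPM with TGFbeta and 121 and 123 TPM with vehicle, of which Notch3, a receptor gene, made up 21.1 and 17.4 TPM with TGFbeta and 74.0 and 83.9 TPM with vehicle. Steap4 also fell, by 2.28 on the log2 scale. Mcam, an adhesion molecule gene, rose by 0.98, and Cspg4 (0.70) and Myh11 (0.15) had both TGFbeta libraries above both vehicle libraries without passing the test. Rgs5 was high in TGFbeta 2 only, with 1.95 and 13.5 TPM with TGFbeta and 2.26 and 2.47 TPM with vehicle. Its log2 change was 0.96 (SE 0.68, limma adjusted p = 0.445). The part of these cells in the changes above was not tested, and fewer cells of a type cannot be told apart from less RNA per cell.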

How the data were processed

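RNA was sequenced in 4 libraries. Each deposited file holds 1 value per gene symbol, which the authors computed and, per the file headers, is in TPM. The software and annotation behind it were not stated in any label or header. Since read numbers cannot be had from TPM, no counting interval is given. The filter for testing was a mean of 1 TPM or more over the 4 libraries, which all 10 members passed. Values were tested as log2(TPM + 1), a scale that understates changes of low genes, with limma 3.58.1 in R 4.3.3 (intensity trend, treatment as the only term, two-sided, Benjamini-Hochberg over all tested genes, called at an adjusted p under 0.05). The fit was checked on simulated data.

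Gene positions come from GENCODE M21 (GRCm38) and promoters from RefSeq (GRCm38.p6), matched by symbol. The 3′ untranslated region of 1 member is not reported here. The members and lists were chosen with earlier results of these data known. Named in the text were all members, the called genes and the 3 largest changes of each pathway list, and the 3 genes most like the member with the largest change. The 14 alternatives were pseudocounts of 0.1 and 5, other filters (any TPM above 0, a mean of 5 TPM or more, protein-coding genes alone), median scaling, quantile normalization, fits without a trend or robust, a replicate block and each library left out. In fits that leave a group with 1 library, it is assumed to vary like the other group.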

Additional observations from a re-analysis of the deposited data

How the results depend on the processing

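All members tested kept a change below 0 in every alternative except Tlr3 without TGFbeta 1, where it was 0.02; with a library left out Tlr3 ran from -0.61 to 0.02. Tnfaip3 was not tested at a mean of 5 TPM or more. The number of these genes called lower was 1 in 5 alternatives and 0 (limma) without the filter on low genes, after quantile normalization, after median scaling, without a trend, with the replicate block and without each library in turn; 1 to 4 of the 10 had an unadjusted p under 0.05 in these fits. Their median log2 change was -0.28 after quantile normalization, -0.24 after median scaling, and -0.47 to -0.24 with a library left out, lowest without TGFbeta 1 and nearest to 0 without vehicle 1. Over all genes, the calls were 427 higher and 1285 lower among protein-coding genes alone, 421 and 401 after median scaling, 333 and 401 after quantile normalization, 165 and 437 without a trend, and 0 and 0 by limma with no filter beyond a TPM above 0 in any library (4348 at an unadjusted p under 0.05). With 1 library left out they ran from 0 to 65 higher and 0 to 138 lower, with 0 without either vehicle library. Replicate numbers are shared by name only, and deviations of same-numbered libraries had r = -0.0539 across genes. With the replicate block, 186 genes were called higher and 445 lower, and Nfkbia had a limma adjusted p of 0.0751. The causes of these shifts were not tested. Depth is unknown, and each group had 2 libraries, so the 95% intervals of the 9 genes not called leave a wide range of changes. The narrowest ran from -0.69 to -0.07 for Nfkb1 and the widest from -1.24 to 0.17 for Tnfaip3. These intervals are not adjusted for the number of genes, and those of Nfkb1, Rela and Relb left out 0.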
